A study of Mus musculus with 16 samples.

Results

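Slc18a3 and Ache are genes of cholinergic transmission. They were followed across 16 single-colour arrays of mouse spinal cord total RNA. Slc18a3 encodes the vesicular acetylcholine transporter, which loads acetylcholine into synaptic vesicles, and Ache encodes acetylcholinesterase, which breaks acetylcholine down. These are 2 of the 8252 genes that the array names by a probe set with 1 symbol. Every probe set whose only platform symbol is Slc18a3 or Ache was taken, which gave 2 of the 12488 on the array, 1 for each gene (101354_at for Slc18a3, Entrez gene 20508, and 104650_at for Ache, Entrez gene 11423), and 0 probe sets hold either symbol among several. Both genes were chosen from their differences between spastic, control and B6C3Fe cords, so these differences are given as description, with no test. Both probe sets passed the filter on low values and were among the 6425 tested (1 probe set for each symbol, plus those with no single symbol, all referred to as genes).

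The spastic mutation is recessive and lies in Glrb, which encodes a subunit (beta) of the glycine receptor, the main inhibitory receptor of the cord beside that for GABA. By title, the spastic arrays are 2 samples of females of 2 months (Spa1-2moF and Spa2-2moF, 1 array each), a sample of females of 6 months (Spa-M6moF, 2 arrays), 1 array of males of 3 months titled sev (Spa-sev-3moM) and 1 of males of 3 or more months (Spa3+moM). The controls, titled Ctr, are 4 samples of 2 arrays each, female and male, of 9 and of 12 months. The third group is B6C3Fe, a hybrid mouse stock, as males of 1 month (2 arrays). The labels name no treatment, and they state neither the strain nor the Glrb genotype of the controls. Arrays a and b of one title were averaged into 1 sample, so that 10 samples entered the comparisons: 4 control, 5 spastic and 1 B6C3Fe. Nothing in the labels says that these are separate animals, so every p-value measures only the spread between samples, which may be technical. Group and titled age change together and cannot be told apart.

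Acetylcholine is made from choline and acetyl-CoA by choline acetyltransferase (Chat), packed into vesicles by the Slc18a3 product, released, and bound by nicotinic and muscarinic receptors. Ache hydrolyses it in the synaptic cleft, and the choline is taken up again by the transporter Slc5a7. In the spinal cord the best known cholinergic cells are the motor neurons, whose axons drive skeletal muscle, together with smaller sets of interneurons and autonomic preganglionic neurons. Ache is also made by neurons that are not cholinergic, by skeletal muscle and by red blood cell precursors. Slc18a3 lies inside Chat, in an arrangement called the cholinergic gene locus. The array holds 0 probe sets for Chat, so the enzyme itself was not measured.

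The stretches just upstream of both gene starts are shown because the genes lie on different chromosomes and were both higher in spastic cords. They are the 250 bases before each start in RefSeq, build GRCm38.p6, 5′ to 3′, with the letters GGGCGG of the GC box, to which Sp1 is known to bind, in capitals where they occur on either strand (CCGCCC when read on the other strand).
Slc18a3, chr14:32464851-32465100, minus strand: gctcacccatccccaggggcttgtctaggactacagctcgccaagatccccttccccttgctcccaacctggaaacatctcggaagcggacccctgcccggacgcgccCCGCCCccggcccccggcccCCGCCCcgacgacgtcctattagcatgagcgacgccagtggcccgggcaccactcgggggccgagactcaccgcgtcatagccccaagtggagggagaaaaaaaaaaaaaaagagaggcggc
Ache, chr5:137288004-137288253, plus strand: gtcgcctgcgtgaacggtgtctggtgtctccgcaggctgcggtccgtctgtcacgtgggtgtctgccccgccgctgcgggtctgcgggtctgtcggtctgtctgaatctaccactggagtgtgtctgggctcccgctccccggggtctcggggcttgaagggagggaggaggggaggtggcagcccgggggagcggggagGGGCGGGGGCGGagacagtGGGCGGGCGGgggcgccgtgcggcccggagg
The Slc18a3 window held 2 such matches and the Ache window 4, neighbouring and overlapping matches counted separately, while 32.7% of 32851 windows of the same length held at least 1. GC content was 66% upstream of Slc18a3 and 73.6% upstream of Ache, above 84.5% and 94.7% of all windows, whose median was 52.4%. Both windows held 0 matches to TATAAA (the TATA box, in 12.4% of windows), to CCAAT (33.8%) and to TGACGT (letters of the cyclic AMP response element, 6.47%), each searched on both strands. The window of Chat, whose locus holds Slc18a3, had 0 GGGCGG, 2 CCAAT and 1 TGACGT. These are matches of letters and were not linked to the array values.

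The deposited intensities are linear, with a median per array of 289 to 383.6. Values under the 20th percentile of all intensities, 60.9, were set to this floor, which is 5.93 on the log2 scale and which 14.7% to 24.1% of the values on an array did not exceed. Glrb, which carries the spastic mutation, had log2 intensities of 9.92 to 11.11 on the spastic arrays, 12.70 to 13.30 on the controls and 12.92 to 12.98 on the B6C3Fe arrays. Xist, which is transcribed from the inactive X chromosome, was at 10.37 and 10.54 on the 2 spastic arrays titled male, just below the 10.55 to 12.07 on arrays titled female and far from the 5.93 to 5.97 on the other arrays titled male. All 6 spastic arrays thus carry the female pattern against 4 of 8 controls and 0 of 2 B6C3Fe arrays. Between spastic and B6C3Fe arrays this pattern therefore changes together with the group and cannot be told apart from it. Titled sex was kept out of the group comparisons. RNA quality was read from the control probe sets at the 3-prime and 5-prime ends of Pcx. Their log2 ratio was 1.31 to 2.72 in controls, 2.00 to 2.98 in spastic cords and 1.67 to 1.89 in B6C3Fe, and a higher ratio goes with more degraded RNA.

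Slc18a3 was high on every spastic array and low on every control and B6C3Fe array. Spastic arrays read 663.6 (Spa1-2moF), 613.6 (Spa2-2moF), 1072 (Spa-sev-3moM), 1012 (Spa3+moM), and 754.5 and 792.2 (arrays a and b of Spa-M6moF). Control arrays a and b read 137.3 and 130.9 in females of 12 months, 217.04 and 329.2 in males of 12 months, 27.3 and 345.3 in females of 9 months, and 419.2 and 287 in males of 9 months. The B6C3Fe arrays read 109.0 and 102.0. All 6 spastic arrays lay above all 8 control arrays, and the lowest of them was 1.46-fold above the highest control. The share of all genes whose arrays separate in this way was not counted, while limma called 19.3% of the 6425 genes in spastic minus control. The spastic arrays lay close together, whereas the control arrays ran from below the floor to 419.2.

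**Figure D1:**
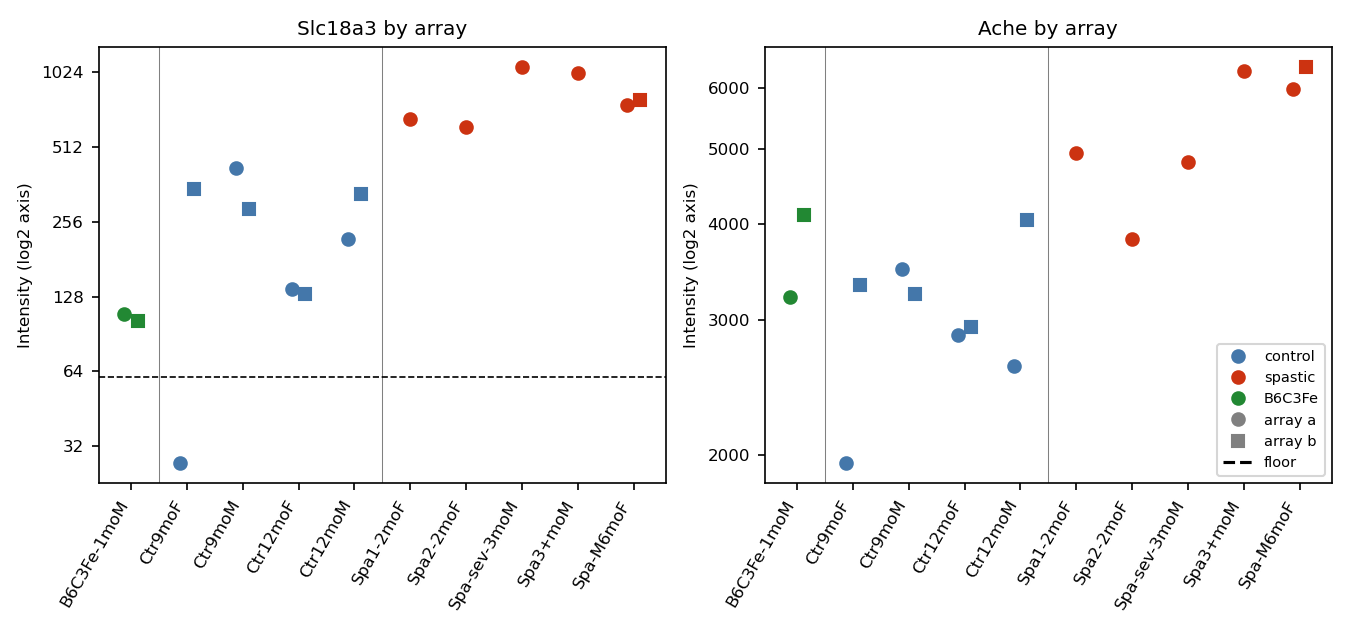
Intensity of Slc18a3 (left) and Ache (right) on each of the 16 arrays, on log2 axes, by sample title; circles are arrays a (or the only array of a title), squares arrays b, blue control, red spastic, green B6C3Fe, and the dashed line the floor of 60.9. For Slc18a3 the spastic arrays, from 613.6 up, sit above all others, while for Ache the array Spa2-2moF, at 3817, lies below 1 control and 1 B6C3Fe array.

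On the log2 scale, Slc18a3 averaged 9.66 ± 0.36 (SD, n = 5) in spastic samples, 7.69 ± 0.67 (SD, n = 4) in controls and 6.72 in the single B6C3Fe sample. The spastic mean was thus 1.97 above the control mean (SE 0.29), or 3.92-fold, and 2.94 above B6C3Fe (SE 0.47), or 7.65-fold. The B6C3Fe readings were low, and with the floor at the 40th percentile of all intensities the difference from B6C3Fe was 1.97, and that of B6C3Fe from controls -0.37. The median over all genes tested was -0.02 for both differences as reported. In spastic minus control, Slc18a3 had the 2nd highest difference of the 6425 genes, and 26 genes differed by more in either direction. The filter on low values used the mean over all arrays, so the high spastic readings helped Slc18a3 to enter this ranking. Its control mean of 7.69 lay just above the cut of 7.62, and its B6C3Fe value of 6.72 below it. The rank is therefore description only. The B6C3Fe sample lay below the controls by 0.97 (SE 0.48), and 7 of 8 control arrays read higher than both B6C3Fe arrays. All of these groups share arrays across the comparisons, and in pieces of whole cord fewer cells of a type and less RNA per cell cannot be told apart.

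The order of the samples ran from B6C3Fe (6.72) through the controls Ctr12moF (7.07), Ctr9moF (7.18), Ctr12moM (8.06) and Ctr9moM (8.44) to the spastic samples Spa2-2moF (9.26), Spa1-2moF (9.37), Spa-M6moF (9.59), Spa3+moM (9.98) and Spa-sev-3moM (10.07). The widest step between neighbours, apart from that between female and male controls, was the one from Ctr9moM to Spa2-2moF, at the border of the control and spastic samples. The pair of female controls and the pair of male controls each differed by less than the control SD of 0.67, and neighbours within the spastic group by no more than about the spastic SD of 0.36. By titled age the spastic means were 9.32 at 2 months, 10.02 at 3 or more months and 9.59 at 6 months, with the 3-month samples being those titled male. The samples titled male nevertheless carry the female Xist pattern. Age, titled sex and the sev title cannot be told apart among the spastic samples.

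Ache was expressed far above the floor on every array and was higher in spastic samples by a smaller factor than Slc18a3. The spastic arrays read 4944 (Spa1-2moF), 3817 (Spa2-2moF), 4817 (Spa-sev-3moM), 6311 (Spa3+moM), and 5978 and 6396 (arrays a and b of Spa-M6moF). Control arrays a and b read 2868 and 2935 in females of 12 months, 2608 and 4039 in males of 12 months, 1950 and 3324 in females of 9 months, and 3488 and 3243 in males of 9 months. The B6C3Fe arrays read 3214 and 4106. Single arrays overlapped: 5 of 6 spastic arrays lay above all controls, and Spa2-2moF lay below array b of the 12-month male controls. After arrays of one title were averaged the samples no longer overlapped, but the lowest spastic sample was only 1.13-fold above the highest control and 1.05-fold above B6C3Fe. How many of all genes separate the samples in this way was not counted either.

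Ache averaged 12.32 ± 0.30 (SD, n = 5) in spastic samples, 11.55 ± 0.18 (SD, n = 4) in controls and 11.83 in B6C3Fe, as log2 intensities. The spastic mean lay 0.78 above the controls (SE 0.15), or 1.71-fold, and 0.50 above B6C3Fe (SE 0.24), or 1.41-fold. In spastic minus control the difference ranked 116th from the highest of the 6425 genes, and in spastic minus B6C3Fe 669th. B6C3Fe was 0.28 above the controls (SE 0.25), so this sample lay between the groups for Ache and below both for Slc18a3. The 5 spastic samples were 11.90 (Spa2-2moF), 12.23 (Spa-sev-3moM), 12.27 (Spa1-2moF), 12.59 (Spa-M6moF) and 12.62 (Spa3+moM), with means of 12.08 at 2 months, 12.43 at 3 or more months and 12.59 at 6 months. Spa2-2moF was thus the lowest spastic sample for both genes, but Spa-sev-3moM was the highest for Slc18a3 and the second lowest for Ache.

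The Pcx ratio, a sign of RNA quality, moved with the group for both genes. With that ratio as a covariate the spastic minus control difference was 1.84 for Slc18a3 and 0.49 for Ache, and the difference from B6C3Fe was 2.81 and 0.24. Outside array a of the 9-month female controls, 5 of 6 spastic arrays had a higher Pcx ratio than any control, while the Gapdh and Actb ratios did so on 1 and 2 spastic arrays. That array a, at 2.72, lay above every spastic array except Spa3+moM (2.98). The median Actb log2 ratio was lower in spastic cords (-0.04) than in controls (0.28), and it was -3.29 and -1.21 on the B6C3Fe arrays. The median Gapdh ratio was -0.28 in spastic cords and -0.41 in controls. The part of RNA quality in the Ache difference was not otherwise tested.

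Array a of the 9-month female controls gave the lowest reading of both genes. Arrays a and b of this title were picked out together with the genes, so what follows is description and no test. Slc18a3 read 27.3 on array a, below the floor, and 345.3 on array b, 12.6-fold higher, or 5.67-fold once array a was raised to the floor. Ache read 1950 on array a and 3324 on array b, 1.70-fold higher. Among all genes tested, 99.3% differed by less than Slc18a3 between these arrays, and 89.5% by less than Ache. The pair itself was the least alike of the 6 pairs of arrays, with 373 genes (5.81%) differing at least 2-fold, 322 of them higher on b, against 83 to 259 in the other pairs, and with a Pearson correlation across genes of 0.933 against 0.951 to 0.977. Array a also had the highest 3-prime to 5-prime log2 ratios among controls, 2.72 for Pcx, 0.99 for Gapdh and 1.27 for Actb, against 1.31, -0.46 and 0.15 on array b.

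**Figure D2:**
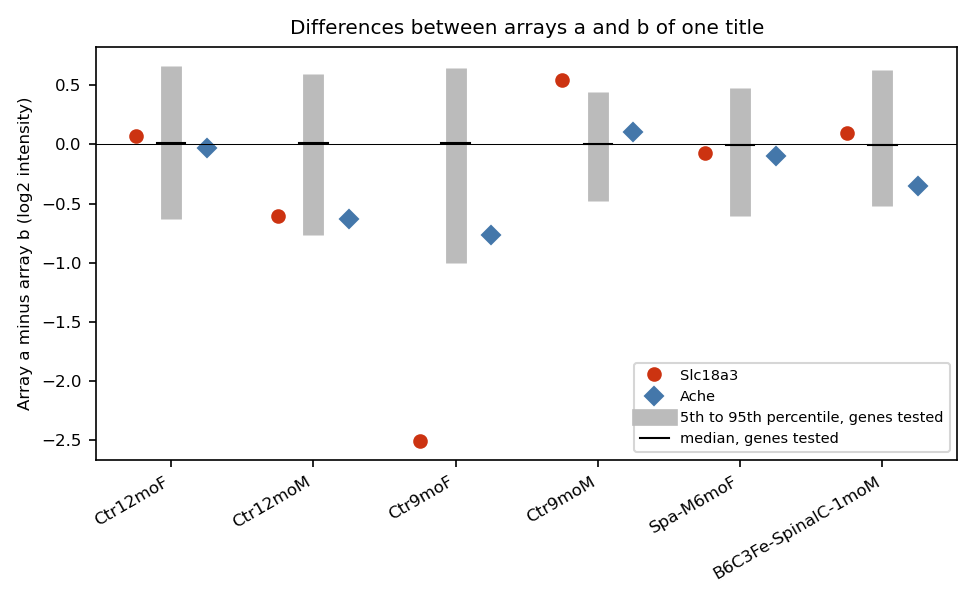
Difference in log2 intensity between arrays a and b of the 6 titles that have both, for Slc18a3 (red circles) and Ache (blue diamonds), with grey bars from the 5th to the 95th percentile of all genes tested and a black line at their median. Slc18a3 at -2.50 in Ctr9moF lies far outside the grey bar, and the other values lie between -0.77 and 0.55.

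In the other pairs the genes stayed closer. Array a minus array b was -0.60 for Slc18a3 and -0.63 for Ache in the 12-month males, and 0.55 and 0.11 in the 9-month males. It was 0.07 and -0.03 in the 12-month females, -0.07 and -0.10 in Spa-M6moF, and 0.10 and -0.35 in B6C3Fe. For Ache the differences within the pairs of 12-month males and 9-month females thus exceeded in size its difference between spastic samples and B6C3Fe (0.50). The one in the 9-month females, -0.77, was about as large as its difference between spastic samples and controls (0.78). Without array a of the 9-month females, the spastic minus control difference was 1.66 for Slc18a3 and 0.68 for Ache. The 7 other control arrays read 130.9 to 419.2 for Slc18a3 and 2608 to 4039 for Ache.

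Age, sex and the sev title were tested with limma, since these contrasts did not choose the genes. Arrays a and b of the 9-month female controls were, however, picked out for description together with the genes. The age and sex contrasts use these arrays, so their p-values are not free of that choice. Between controls of 12 and 9 months, Slc18a3 differed by -0.24 (SE 0.30; 95% interval -0.92 to 0.43; limma adjusted p = 0.982) and Ache by 0.07 (SE 0.23; -0.44 to 0.58; adjusted p = 0.987). Of all genes, 0% (0 of 6425) were called at an adjusted p under 0.05, while 4.98% (320) had an unadjusted p under 0.05. Neither gene passed, and neither sign was stable. For Slc18a3 the difference was 0.04 with the floor at the 10th percentile, 0.11 with the arrays lettered a alone, -0.37 with the floor at the 40th percentile, -0.41 after quantile normalization and -0.87 without array a of the 9-month females. With 1 control sample left out it was -0.38 (without Ctr12moF or Ctr9moF) or -0.11 (without either male sample). For Ache it was -0.12 without array a of the 9-month females, -0.05 without either female sample and 0.19 without either male sample. In the fit as reported, the Slc18a3 interval reaches a fall of almost 2-fold.

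Female controls averaged less Slc18a3 than male controls, with mean log2 intensities of 7.12 and 8.25. At 9 months the lower female value rested on array a: array b of the females read 8.43, against 8.71 and 8.16 on the male arrays. The difference was -1.13 (SE 0.30; 95% interval -1.80 to -0.45), with limma's unadjusted p = 0.00408 and adjusted p = 0.999, so it did not pass. It was -0.50 without array a of the 9-month females, -0.38 with the floor at the 40th percentile and -1.72 with the arrays lettered a alone. Ache differed by -0.28 (SE 0.23; -0.79 to 0.23; limma adjusted p = 0.999), and by -0.09 without that array. Of all genes, 0.0467% were called by limma, namely Xist, Urm1 and a probe set with no single symbol, named here after their values were seen. Since the spastic arrays all carry the female Xist pattern, the samples titled female were also compared alone: Slc18a3 was then 2.29 and Ache 0.85 higher in spastic samples (3 against 2 samples).

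The spastic sample titled sev, a single array assumed to vary like the others, was compared with the 4 other spastic samples. Slc18a3 was 0.51 higher (SE 0.48; 95% interval -0.55 to 1.57; limma adjusted p = 0.997) and Ache differed by -0.11 (SE 0.26; -0.68 to 0.45; adjusted p = 0.997). Neither passed. In this contrast limma called 0.0156% of all genes, which is 1 probe set with no single symbol. The Slc18a3 interval runs from below 0 to a rise of almost 3-fold.

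The other genes tested from the lists for acetylcholine supply, breakdown, reception and the neuromuscular synapse did not pass in spastic minus control. The lists held 36 genes besides Slc18a3 and Ache, of which 19 had a probe set and 9 passed the filter on low values. By limma, 0 of these 9 were called higher and 0 lower, with 0 at an unadjusted p under 0.05 and a smallest adjusted p of 0.25. Across all genes, 19.3% were called in spastic minus control, 9.53% higher and 9.79% lower. Slc18a3 and Ache had differences of 1.97 and 0.78, while those of the 9 genes ran from -0.17 to 0.19 with a median of -0.01, beside -0.02 over all genes. Against B6C3Fe, a single sample assumed to vary like the other groups, limma called 0 of the 9, with 0 at an unadjusted p under 0.05. The differences of the 9 were wider there, from -0.75 to 0.25 with a median of -0.14. Colq (-0.75), Chrne (-0.68) and Rapsn (-0.55) differed by more in size than Ache (0.50). Untested probe sets of these lists differed by still more: another one of Chrne by -2.66, Chrnd by -2.05, Chrnb2 by -1.17 and a second one of Pcyt1a by -0.93. Of the other untested ones, Chrna1, Chrna6, Chrnb1, Chrm1 and Chrm4 read higher in spastic samples, by 0.16 to 0.55. In that comparison limma called 2.05% of all genes, 1.51% higher and 0.545% lower.

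By role, 4 of 7 genes listed under supply were tested, and these handle choline or acetyl-CoA, not acetylcholine itself. Slc44a1, a choline transporter, differed by -0.01 (limma adjusted p = 0.974), Chka, a choline kinase, by 0.08 (0.822), Pcyt1a, which makes CDP-choline, by -0.11 (0.569), and Acly, which makes acetyl-CoA from citrate, by 0.19 (0.25). A second probe set of Pcyt1a, with a lower mean level, differed by -0.76 and was not tested. Chat, Slc5a7 and Chkb had 0 probe sets, so the synthetic enzyme and the uptake transporter that act beside Slc18a3 were not measured. Among genes acting beside Ache, Colq, the collagen tail that anchors it at the neuromuscular junction, differed by 0.04 (limma adjusted p = 0.946). Bche, a related cholinesterase, did not pass the filter, with log2 intensities of 6.59 ± 0.35 (SD, n = 4) in controls and 6.19 ± 0.52 (SD, n = 5) in spastic samples, and it was at the floor on 5 arrays.

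Of 16 nicotinic receptor subunits, 8 had a probe set and 2 were tested. Chrna7, which forms homomeric neuronal receptors, differed by -0.03 (limma adjusted p = 0.911), and Chrne, a subunit of the adult muscle receptor, by -0.17 (0.652). Another Chrne probe set differed by -0.80 below the filter, and the remaining one was at the floor on 16 arrays. Below the filter, Chrnd averaged 7.33 ± 0.63 (SD, n = 4) in controls and 6.19 ± 0.36 (SD, n = 5) in spastic samples. This was a difference of -1.14, with 4 arrays at the floor. The probe sets of Chrng differed by -0.80 and 0.08, Chrna6 by -0.21, Chrnb2 by -0.10, and Chrna1 and Chrnb1 by 0.11 each. None of these was tested. Of the 5 muscarinic receptors, Chrm1 and Chrm4 had a probe set and both lay below the filter. Of the genes that organise the neuromuscular synapse, Rapsn, which clusters the receptors, differed by -0.16 (limma adjusted p = 0.536) and Agrn, the nerve-derived organiser, by -0.01 (0.974). A second Agrn probe set differed by -0.39 and was not tested, and Musk, the muscle receptor kinase, was at the floor on 16 arrays.

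Vesicular transporters of other transmitters were represented by 1 of 6 genes. Slc32a1, which loads GABA and glycine into vesicles, rose from 12.67 ± 0.30 (SD, n = 4) in controls to 13.31 ± 0.13 (SD, n = 5) in spastic samples, a difference of 0.64 (SE 0.14; limma adjusted p = 0.00809). It stood at 13.08 in B6C3Fe, from which the spastic samples differed by 0.23 (limma adjusted p = 0.611). The call against controls was lost with the arrays lettered a alone (difference 0.59, limma adjusted p = 0.1) and in samples titled female (0.62, adjusted p = 0.158), where the difference stayed near that reported. It was also lost with log2 of age in the model (0.45, limma adjusted p = 0.0805) and with the covariate of the Pcx ratio (0.41, adjusted p = 0.282).

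**Figure D3:**
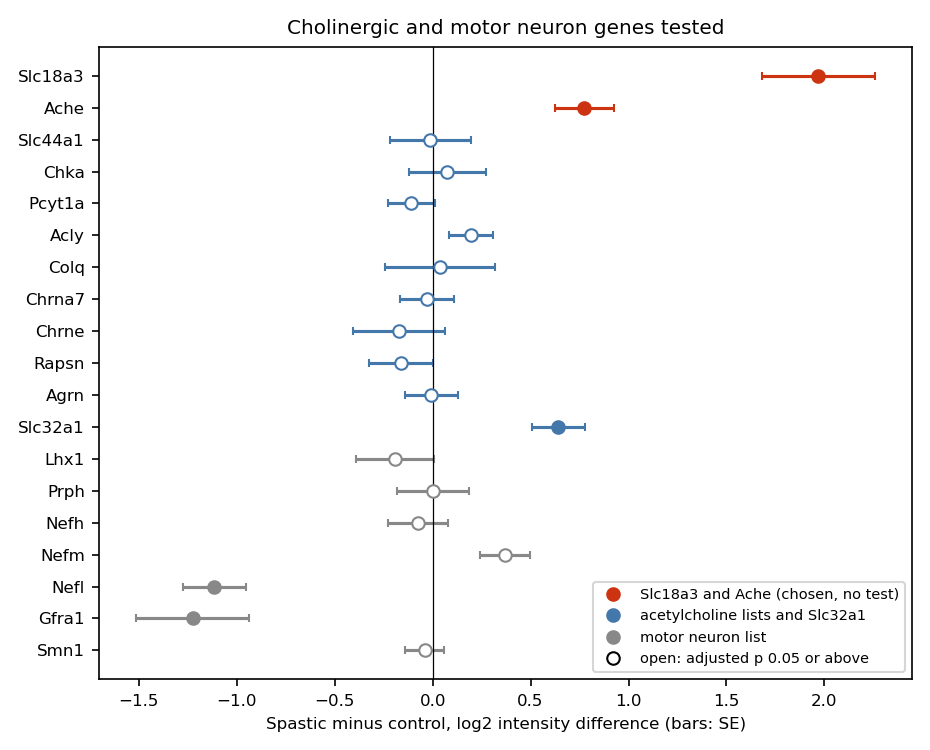
Spastic minus control difference in log2 intensity, with SE bars, for Slc18a3 and Ache (red), the tested genes of the acetylcholine lists and Slc32a1 (blue) and the tested motor neuron genes (grey). Open points had a limma adjusted p of 0.05 or above. The points of Slc18a3 and Ache are always filled and stand for no test, since both were chosen from their group differences. Slc18a3 at 1.97 and Ache at 0.78 lie to the right, the 9 acetylcholine genes lie between -0.17 and 0.19, and Nefl and Gfra1 lie beyond -1.

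Of 21 listed genes known from motor neurons 12 had a probe set and 7 were tested. In spastic minus control 0 of the 7 were called higher and 2 lower, with a median of -0.08, beside 9.53% called higher and 9.79% called lower among all genes, shares that give less than 1 of 7 genes in each direction. Nefl, the light neurofilament subunit, fell from 12.50 ± 0.29 (SD, n = 4) to 11.39 ± 0.28 (SD, n = 5), a difference of -1.11 (SE 0.16; limma adjusted p = 0.00152). Gfra1, a receptor for the growth factor GDNF, fell from 8.47 ± 0.59 (SD, n = 4) to 7.24 ± 0.37 (SD, n = 5), a difference of -1.22 (SE 0.29; limma adjusted p = 0.0134). Both are also made by other neurons. The other filament genes differed by 0.37 (Nefm, limma adjusted p = 0.0624), -0.08 (Nefh) and 0.00 (Prph), the transcription factor Lhx1 by -0.19 and Smn1 by -0.04. Isl1, a transcription factor of motor neurons, was at the floor on all spastic and B6C3Fe arrays, so it gives no measure of motor neuron content there.

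Against B6C3Fe, limma called 0 of the 7 motor neuron genes, with 5 at an unadjusted p under 0.05, and the smallest adjusted p was 0.113, that of Nefl (difference -0.85). The 5 went both ways: Prph (0.86) and Nefm (0.65) read higher in spastic samples, and Nefl, Gfra1 (-1.17) and Smn1 (-0.50) lower, and limma called 2.05% of all genes. With the Pcx ratio as a covariate Nefl and Gfra1 lost their calls against controls, with differences of -0.64 and -0.51 (limma adjusted p = 0.0866 and 0.464). Gfra1 also lost its call with the arrays lettered a alone (difference -0.87, limma adjusted p = 0.189) and in samples titled female (-1.04, adjusted p = 0.225). The 4 genes listed for C boutons, the cholinergic synapses on motor neurons, had 0 probe sets. The summed linear intensity of the 12 motor neuron genes was 16416 to 27489 on control arrays and 19562 to 24046 on spastic arrays, which overlap.

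Markers of other cell types were summed in the same way to place beside the levels of Slc18a3 and Ache. The sum of 13 endothelial and mural markers was 18107 to 20233 on spastic arrays against 11048 to 12404 on controls and 12056 to 12057 on B6C3Fe arrays, and 10 of the 13 were called higher by limma in spastic minus control, where 9.53% of all genes were called higher and 9.79% lower. The sum thus separated the spastic arrays as Slc18a3 did. Its part in the differences of Slc18a3 and Ache was not tested. General neuron markers (8 of 10 with a probe set) overlapped, with 54770 to 78185 on spastic and 56196 to 69370 on control arrays, 1 of 8 called higher (9.53% of all genes) and 1 lower (9.79%). Glial markers gave 38325 to 63275 and 46362 to 63168, with 3 of 7 tested genes called lower (9.79% of all genes), and sensory neuron markers 1404 to 2551 and 1692 to 2557. Of the 2 sensory genes tested, Tac1 was called lower (-0.54, limma adjusted p = 0.0426) and Prph differed by 0.00.

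For Ache, which muscle and red cell precursors also make, the sums of those lists did not separate spastic from control arrays, while the erythroid sum was lowest in B6C3Fe. Skeletal muscle markers summed to 11500 to 27366 on spastic and 16960 to 25052 on control arrays, with 3 of 16 tested genes called lower (9.79% of all genes) and 0 higher (9.53%), and Myh2 at the floor on 16 arrays. The highest member, Pvalb, which weighs most in this sum, hardly differed at its tested probe set (13.06 in controls, 13.01 in spastic samples). A second Pvalb probe set, with a lower mean level, differed by -0.45 and was not tested. The 16 differences ran from -3.35 (Myh4) to 0.64 (Myh7), with a median of -0.65 beside -0.02 over all genes. The tested Myh4 probe set read 9.33 to 10.92 on control and 5.93 to 8.58 on spastic arrays. Car3 read 8.33 to 9.04 and 5.93 to 8.19. Erythroid markers (4 of 8 with a probe set) summed to 9288 to 25777 on spastic, 15083 to 19829 on control and 3949 to 6061 on B6C3Fe arrays, which lay below all others. The 3 tested genes of that list did not go one way. Hba-a1, an alpha globin, differed by 2.98 between spastic samples and B6C3Fe (limma adjusted p = 0.0192). Alas2 differed by -1.43 (limma adjusted p = 0.216) and Slc4a1 by -0.12 (0.942). Alas2 was highest in B6C3Fe, at a log2 intensity of 11.36 against 9.93 in spastic and 9.40 in control samples. For the sums, the spastic ranges covered those of the controls in both lists. The part of muscle or red cell content in the Ache values was not tested.

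Across the 10 samples Slc18a3 and Ache had a Pearson correlation of 0.829, which largely restates that both were higher in spastic samples and is given as description. Among 5691 other genes with 1 symbol, Ache ranked 169th in likeness to Slc18a3, and Slc18a3 ranked 202nd in likeness to Ache. The genes most like Slc18a3 were Pef1 (0.973), Sptan1 (0.964), Ier3 (0.960), Cyb5r3 (0.955), S100a10 (0.953), Copg1 (0.949), St6galnac6 (0.948) and Pld3 (0.941). Those most like Ache were Pabpn1 (0.987), Bri3 (0.979), Inpp5a (0.963), Smpd1 (0.961), Brap (0.955), Ssbp4 (0.951), Rap1gap (0.950) and Rnd2 (0.948). Spastic minus control differences were 0.37 to 1.54 for the first set, all smaller than that of Slc18a3, and 0.28 to 1.07 for the second. All points share the same arrays and the same group structure.

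The spastic minus control difference kept its sign for both genes in all 28 alternative analyses, which by the choice of these genes is no measure of stability. Slc18a3 ran from 1.59, with the floor at the 40th percentile, to 2.46, with age (log2) in the model and B6C3Fe counted as control. Ache ran from 0.49, with the Pcx ratio as a covariate, to 0.93, with the arrays lettered a alone or the letter as a replicate block. Leaving out 1 sample at a time gave 1.76 to 2.22 for Slc18a3 and 0.70 to 0.88 for Ache. Without the 2 spastic samples titled male, Slc18a3 was 1.72 higher.

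**Figure D4:**
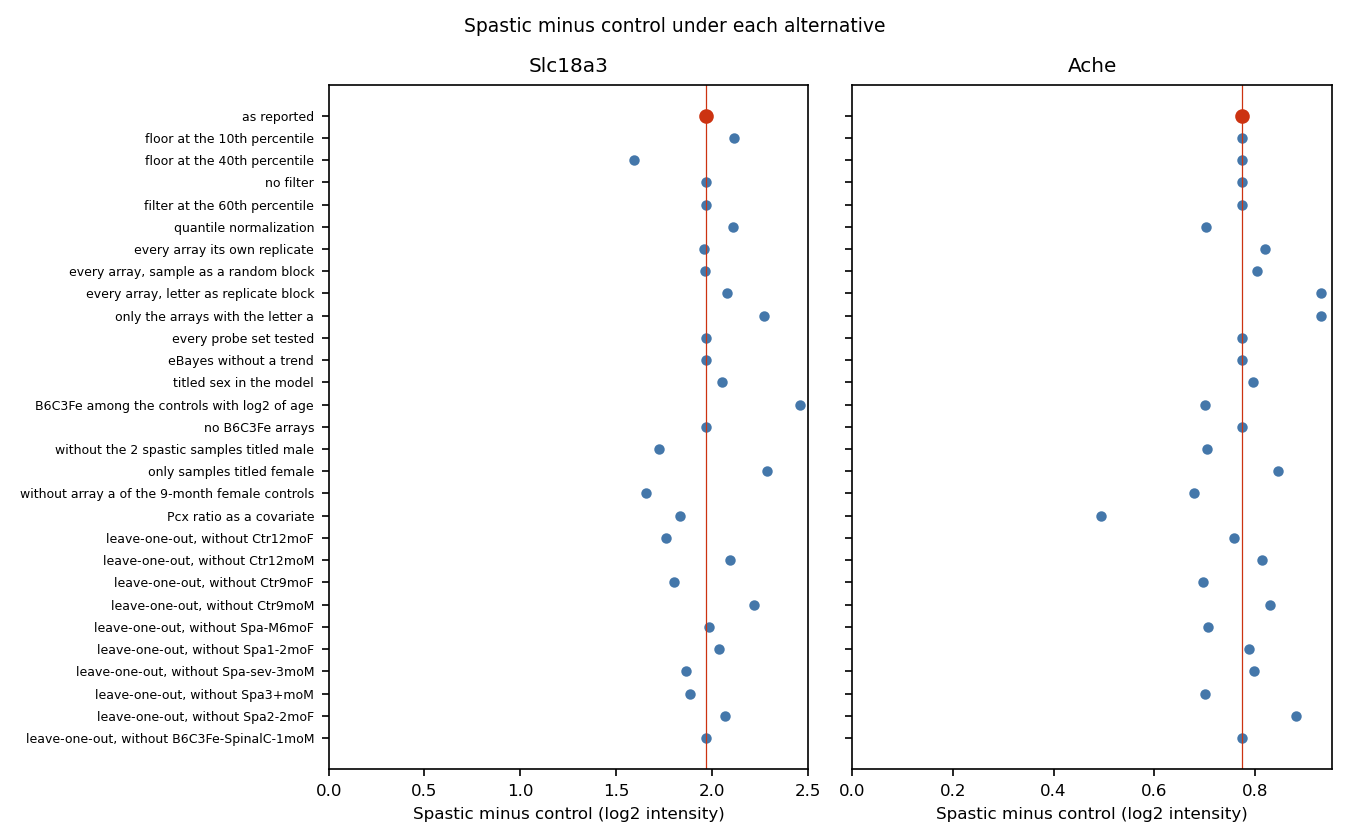
Spastic minus control difference in log2 intensity for Slc18a3 (left) and Ache (right) as reported (red point and line) and under each of 28 alternatives (blue points); both axes start at 0 and differ in scale. Slc18a3 spans 1.59 to 2.46 around 1.97, and Ache spans 0.49 to 0.93 around 0.78, with the value under the Pcx covariate apart from the rest.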

How the data were processed

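Total RNA from mouse spinal cords was hybridised to 16 arrays of 1 colour. The deposited table holds linear intensity values, which the authors had already scaled, since the mean after trimming 2% at each end was 800.4 to 800.5 on every array. How it was scaled, and with which software, is not given in sources used here. Intensities were floored at their 20th percentile and put on the log2 scale. The 66 control probe sets were left out. Probe sets with a mean log2 value above the 40th percentile (7.62) were tested, 1 per symbol (the highest mean), leaving 6425, of which 5692 have 1 symbol from GEO's platform annotation.

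Titles gave group, sex, age and letter, and arrays differing only in the letter were averaged (consensus correlation 0.25); 0 pairs of arrays held identical values. limma 3.58.1 in R 4.3.3 (lmFit, eBayes with a trend) fitted group means, with age and titled sex within controls, or the sev sample apart, in further fits. Tests were 2-sided with Benjamini-Hochberg adjustment over all genes tested, and adjusted p-values under 0.05 were called. The fits were tested on simulated data. Precision is limited by the number of arrays.

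The members, lists, naming rule and alternatives were chosen with earlier results of these data known. Named were both members, all tested genes of the acetylcholine and transporter lists, called motor neuron genes, and the 8 genes most correlated with each member. The remaining tested motor neuron genes, Isl1, the muscle and erythroid markers named, and genes named as called, untested or unmeasured were added after their values were seen. Alternatives were other floors and filters, quantile normalization, other treatments of the letter, probe sets, sex and age, samples left out, eBayes without a trend, and the Pcx ratio as a covariate.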

Additional observations from a re-analysis of the deposited data

How the results depend on the processing

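Over the 28 alternatives, 0 of the 9 acetylcholine genes tested were called in spastic minus control; against B6C3Fe 1 was called with no filter. Slc18a3 could not be tested with a 60th percentile filter. With the floor at the 40th percentile it was 1.97 above B6C3Fe, and B6C3Fe was -0.37 from controls. With the Pcx ratio Ache was 0.49 above controls and 0.24 above B6C3Fe. With the letter as a replicate block, which the labels do not tie to animals, Slc18a3 was 2.08 and Ache 0.93 above controls. Counts of called genes moved more. For spastic minus control (1241) they were 723 with arrays a alone, 654 with log2 of age, 738 without the spastic samples titled male, 163 in samples titled female, 26 with the Pcx ratio, and 711 to 1285 with 1 sample left out (711 without Ctr12moF). For spastic minus B6C3Fe (132) they were 288 with no filter, 760 with every array its own replicate, 368 with a random block, 622 with the replicate block, 18 with arrays a alone, 80 without a trend, 75 without the spastic samples titled male, 211 without array a of the 9-month females, 19 with the Pcx ratio, and 66 to 173 with 1 sample left out (66 without Spa-sev-3moM, 70 without Ctr9moM, 76 without Spa1-2moF, 86 without Spa-M6moF, 87 without Ctr12moM). For age (0) they were 23 with no filter, 9 with every array, 2 with the random and 5 with the replicate block, and 0 with any sample left out. For sex (3), no filter gave 25, and leaving out a sample 2 to 3. For sev (1), no filter gave 11, every array 2 and the random block 2; floors at the 40th and filters at the 60th percentile, the replicate block, arrays a alone and leaving out array a of the 9-month females gave 0, and leaving out a sample 0 to 3. The causes were not tested.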
